A study of Mus musculus with 24 samples.

Results

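The genes described here encode the proteasome of cultured mouse T cells. They were picked by symbol and biotype, as the protein coding genes whose symbol starts with Psma to Psmg followed by a digit. The set itself was chosen with earlier results of these data known. There were 51 such genes among 56748 in the count table, 21970 of them protein coding. The 5 genes of the immunoproteasome and its activator (Psmb8, Psmb9, Psmb10, Psme1 and Psme2) were kept apart from the other 46 throughout. A gene was tested if it had enough counts in at least 1 cell type by edgeR's filterByExpr (minimum count of 10). All 5 immunoproteasome genes and 44 of the other 46 passed this filter. The other two, Psma8, a testis form of an alpha subunit, and Psmb11, a thymus form of a beta subunit, had 37 and 34 counts in all 24 libraries together, and no library had more than 8 counts of Psma8 or 6 of Psmb11. Among those tested, 3 share the name but no listed subunit role: Psme2b, a near-copy of Psme2 to which reads of Psme2 may be assigned, Psmc3ip and Psme3ip1.

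In the study, mouse T cells of 4 kinds, Th1, Th17, Treg (regulatory) and CD8, were polarized or activated in culture, labelled wild type (WT) and treated with the vehicle DMSO or with a kappa opioid receptor (KOR) agonist. The 5 agonists, WMS-64, WMS-200, WMS-83, WMS-76 and WMS-75, are described in the series as derived from perhydroquinoxaline and were given at 0.1 µM for up to 5 days. Poly(A) RNA was sequenced from 1 library for each cell type and compound, so that each cell type had 6 libraries, of which 1 was DMSO. The labels do not say whether libraries came from separate mice, so errors and p-values measure no more than how far these libraries differ. Each column name has a WT number of unexplained meaning: it was 4 in all Th1 and 2 in all CD8 libraries, 3 in Treg DMSO and WMS-200 and 2 in the other 4 Treg libraries, and 2, 3 and 1 in Th17 DMSO, Th17 WMS-83 and the other 4 Th17 libraries. Cell types and WT numbers can therefore be told apart only in part.

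The proteasome degrades proteins marked with ubiquitin. Its 20S core is a stack of rings of alpha and beta subunits, and the beta subunits Psmb5, Psmb6 and Psmb7 carry the standard proteolytic sites. The 19S particle, made of Psmc ATPases and Psmd subunits, binds, unfolds and admits the substrate. Under interferon gamma, and constitutively in many immune cells, the core is built with Psmb8, Psmb9 and Psmb10 in place of Psmb5, Psmb6 and Psmb7, which favours peptides that bind MHC class I. Psme1 and Psme2 form the PA28 alpha-beta cap, while Psme3 forms the nuclear PA28 gamma cap and Psme4 the PA200 cap.

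Total counts ran from 15188284 to 21946887 per library. Foxp3 and Cd8a stood highest where the labels place them. Foxp3 had 281 ± 79.9 CPM (counts relative to the TMM-adjusted library total, with the SD, n = 6) in Treg against 33.9 ± 4.06 in Th17. Cd8a had 388 ± 17.5 CPM in CD8. Ifng, a Th1 marker, was higher in CD8 than in Th1, as given below. Cd4 was also read in the CD8 libraries, at 181 ± 11.8 CPM. The Treg libraries stood apart from the rest: ribosomal protein genes took 1.60% to 2.68% of their counts and a mean of 10.9%, 10.5% and 9.73% in Th1, Th17 and CD8. Levels in Treg relative to the other cell types moved with the scaling of libraries, as given beside the results. The within-library ratios that follow do not depend on it.

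In the file, whose genome build is not given in the sources used here, Psmb8 (ENSMUSG00000024338) lies on chromosome 17 from 34416695 to 34420428 and Psmb9 (ENSMUSG00000096727) on the same chromosome from 34400961 to 34406738. Psme1 spans 55815580 to 55818986 and Psme2 55824898 to 55828570 on chromosome 14, and Psmb10 spans 106662367 to 106665076 on chromosome 8. The promoters of 4 members of the ratios below are shown as examples: Psmb8 and Psmb9, of the inducible core, Psme1, of its cap, and Psmb5, the standard counterpart of Psmb8. Sequences run 5′ to 3′ along the gene, from 250 bases before to 50 bases after the start, and are from RefSeq on GRCm38.p6, which held a window for 43 of the 51 members. Capitals mark any match, on either strand, to GAAANNGAA (an interferon-stimulated response element core), TTCNNNGAA (a gamma-activated site), TGACNNNGC (an antioxidant response element) or CCAAT.
Psmb8 (chr17:34197945-34198244, + strand): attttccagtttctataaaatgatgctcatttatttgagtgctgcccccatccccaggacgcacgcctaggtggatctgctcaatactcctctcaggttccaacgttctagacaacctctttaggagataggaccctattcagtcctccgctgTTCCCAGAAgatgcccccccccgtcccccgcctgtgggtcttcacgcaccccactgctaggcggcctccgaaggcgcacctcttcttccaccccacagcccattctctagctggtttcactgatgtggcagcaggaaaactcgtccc
Psmb9 (chr17:34187281-34187580, - strand): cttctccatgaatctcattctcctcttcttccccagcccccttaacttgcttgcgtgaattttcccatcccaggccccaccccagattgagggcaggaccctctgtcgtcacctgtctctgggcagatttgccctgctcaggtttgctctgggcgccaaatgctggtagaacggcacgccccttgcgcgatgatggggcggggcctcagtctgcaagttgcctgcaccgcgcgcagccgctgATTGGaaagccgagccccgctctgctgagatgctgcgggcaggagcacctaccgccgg
Psme1 (chr14:55578244-55578543, + strand): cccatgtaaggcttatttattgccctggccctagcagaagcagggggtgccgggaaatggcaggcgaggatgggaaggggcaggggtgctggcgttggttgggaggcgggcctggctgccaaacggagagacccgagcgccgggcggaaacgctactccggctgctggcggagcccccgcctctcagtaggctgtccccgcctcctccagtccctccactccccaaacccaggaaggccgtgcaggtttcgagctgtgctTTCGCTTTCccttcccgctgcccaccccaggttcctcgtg
Psmb5 (chr14:54617946-54618245, - strand): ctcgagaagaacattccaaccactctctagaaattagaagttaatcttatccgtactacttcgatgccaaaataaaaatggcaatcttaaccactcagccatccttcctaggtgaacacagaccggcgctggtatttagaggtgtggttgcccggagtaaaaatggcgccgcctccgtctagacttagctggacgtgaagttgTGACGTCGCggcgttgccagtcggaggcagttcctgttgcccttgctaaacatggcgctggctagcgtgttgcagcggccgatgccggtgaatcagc
The capitals in Psmb8 are a TTCNNNGAA match at bases -97 to -89, and those in Psmb9 a CCAAT on the other strand at -8 to -4. In Psme1 a GAAANNGAA match lies on the other strand at 11 to 19 past the start, and in Psmb5 a TGACNNNGC match lies at -47 to -39. The Psmb9 window shares 275 bases with that of Tap1, a peptide transporter gene on the opposite strand. The windows of Psmb10 and Psme2, which are not shown, held no match to any of these patterns. Of the 6 windows of the 5 immunoproteasome genes, 1 held GAAANNGAA and 1 TTCNNNGAA, and 8.56% and 8.3% of all 32851 windows did. GAAANNGAA was also in 6 of the 41 windows of the other members (14.6%) and TTCNNNGAA in 2 (4.88%). Of those 41 windows, 6 held TGACNNNGC (14.6%), against 12.4% of all windows, and 15 held CCAAT (36.6%), against 37.4%. The matches are a description of these letters and were not tested as binding sites.

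The balance between the inducible genes and their standard counterparts differed between cell types. Psmb8, Psmb9 and Psmb10 were set against the subunits they replace. Psme1 and Psme2 were set against Psme3, which forms a separate cap and is not replaced by them. In each library the counts per length of an immunoproteasome gene were divided by those of its counterpart, which needs no scaling between libraries. The ratio's absolute size rests on the gene lengths in the file, while its difference between cell types does not. Of 30 differences (5 ratios in 6 pairs of cell types), 23 passed an adjusted p of 0.05 in an exact two-sided permutation test of 6 against 6 libraries, and in the same 23 the groups did not overlap. Each had an exact permutation p of 0.00216, the smallest that this design allows, and an adjusted p of 0.00282 over the 30. The share over other pairs of genes was not computed. For single genes, all Treg libraries lay above all Th17 libraries in 25.1% of all genes tested and below in 29%. For Th1 against Th17 these shares were 15.8% and 15.9%.

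Psmb9/Psmb6 differed most. It had a geometric mean of 0.228 in Th17 (libraries from 0.204 to 0.248), 0.528 in Th1 (0.518 to 0.538), 0.517 in CD8 (0.492 to 0.543) and 2.26 in Treg (1.89 to 3.26). All 6 Treg libraries were thus above 1 and the 18 other libraries below it. The log2 difference was 3.31 between Treg and Th17 (means 1.18 ± 0.334 and -2.13 ± 0.0987; SD, n = 6 each; exact permutation p = 0.00216) and 1.21 between Th1 and Th17.

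Psmb8/Psmb5 showed the same order. Its geometric mean was 0.243 in Th17, 0.494 in Th1, 0.490 in CD8 and 1.38 in Treg, and the Treg libraries ran from 1.08 (WMS-64) to 1.76 (DMSO). Psmb10/Psmb7 was 0.589 in Th17, 0.965 in Th1, 0.975 in CD8 and 3.02 in Treg, with 4.51 in Treg DMSO and a lowest value of 2.59 in Treg WMS-64. In the activator, Psme1/Psme3 was 0.580 in Th17, 1.04 in Th1, 0.987 in CD8 and 1.51 in Treg (1.44 to 1.65). All 4 of these ratios were therefore lowest in every Th17 library and highest in every Treg library.

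Psme2/Psme3 departed from this. It was 0.484 in Th17, 0.932 in Th1, 0.973 in CD8 and 0.875 in Treg, where libraries ran from 0.574 (WMS-200) to 1.25 (DMSO). Th17 was below each other cell type (exact permutation adjusted p = 0.00282), while Treg overlapped Th1 (adjusted p = 0.670) and CD8 (adjusted p = 0.431). Reads of Psme2 may be assigned to its near-copy Psme2b, and the part of this in the departure was not tested. Treg WMS-200 had the lowest Psme2 (51.2 CPM) and the highest Psme2b (74.7 CPM) of the Treg libraries. Between Th1 and CD8, 0 of the 5 ratios passed the test, the smallest p being 0.0996 for Psme1/Psme3. That pair passed it without Th1 DMSO (adjusted p = 0.046) or without CD8 WMS-64 (adjusted p = 0.0189). The 23 differences called were called again when any 1 library was left out, and when only the most common WT number of Th17 and Treg was kept (4 libraries each). Groups that do not overlap still do not when libraries are removed, so these repeats could not come out otherwise and add no weight.

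**Figure D1:**
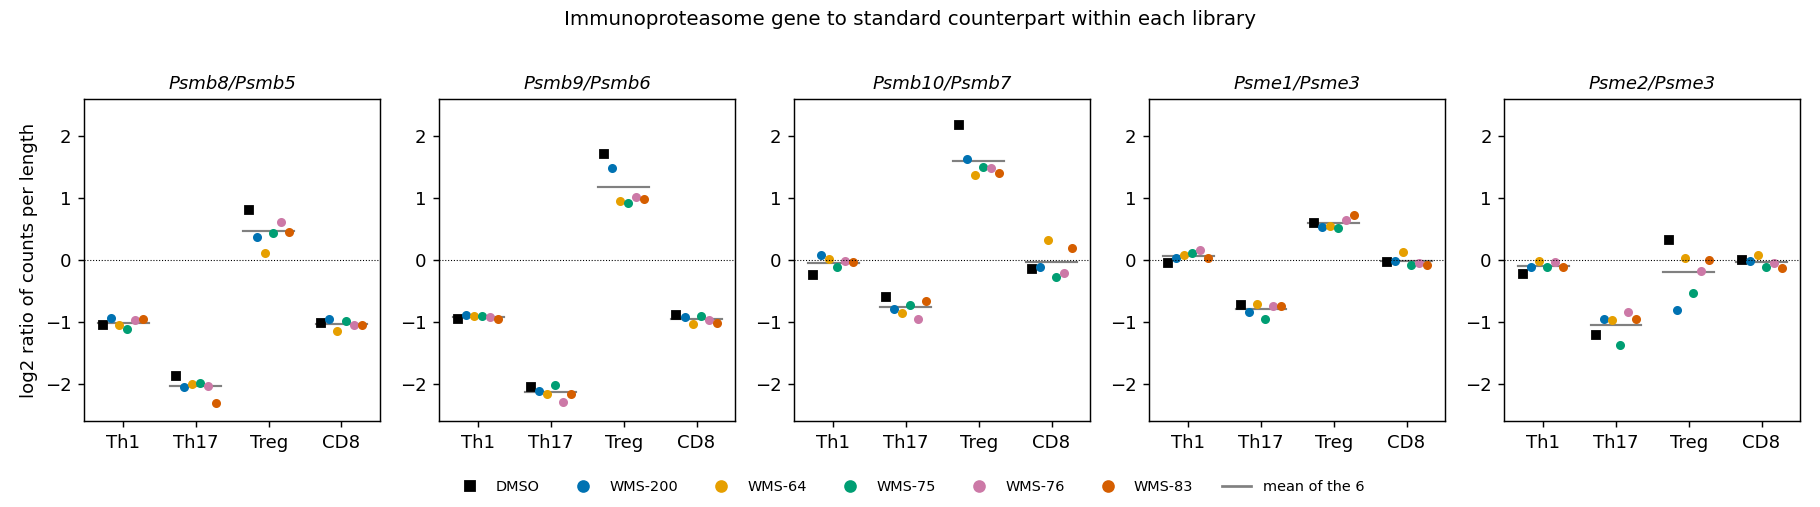
Log2 ratio of counts per length of each immunoproteasome gene to its standard counterpart (y axis) in each of the 24 libraries, by cell type (x axis); squares are DMSO, circles the 5 agonists and grey lines the mean of 6. In the 4 ratios other than Psme2/Psme3, all Treg libraries lie above and all Th17 libraries below the other cell types.

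The levels behind these ratios show which side moved. Between Th1 and Th17 it was mainly the inducible side. Psmb8 ran from 209.4 over a median of 216.0 to 231.9 CPM in Th1 and from 77.7 over 91.0 to 99.5 CPM in Th17. Psmb9 ran from 145.2 over 149.8 to 163.5 CPM in Th1 and from 44.1 over 54.0 to 56.6 CPM in Th17. No Th17 library reached the lowest Th1 library in either gene. Psme1 ran from 254.8 over 260.2 to 268.7 CPM in Th1 and had a highest value of 148.0 CPM in Th17. All 5 immunoproteasome genes were higher in Th1, against 24.1% of all 15885 genes tested: Psmb9 by a log2 fold change of 1.53 ± 0.0791 (SE; edgeR adjusted p = 5.74e-15), Psmb8 by 1.29 ± 0.0615, Psme2 by 1.05 ± 0.101, Psmb10 by 1.01 ± 0.075 and Psme1 by 0.96 ± 0.0664.

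Of the 44 other members tested, 20 were higher in Th1 and 0 lower, against 24.1% and 23.2% of all genes, with a median log2 fold change of 0.16 against 0.02 over all genes. They were counted by role. All 7 alpha ring subunits rose (log2 0.21 to 0.59) and 6 of the 7 standard beta subunits did (0.22 to 0.32), Psmb2 being the exception at 0.12 (edgeR adjusted p = 0.218). Of the 19S particle, 1 of 6 ATPases (Psmc6, 0.27) and 1 of 11 non-ATPase subunits (Psmd3, 0.31) were higher. Besides Psme2b (0.91), the largest differences were in Psmg4, a chaperone of 20S assembly (0.72), and in the alpha subunits Psma3 (0.59) and Psma7 (0.40). At the other end stood Psme3ip1 (-0.11), the lid subunit Psmd8 (-0.08), Psme4 (-0.07) and the ATPase Psmc5 (-0.07), none past the threshold (edgeR adjusted p from 0.155 to 0.562). The standard counterparts Psmb5 (0.27 ± 0.0766), Psmb6 (0.32 ± 0.0732) and Psmb7 (0.30 ± 0.109) rose far less than the genes that replace them, and Psme3 did not pass the threshold (0.11 ± 0.0605, edgeR adjusted p = 0.130). Psmb7 lost its call when any of 7 libraries was left out (edgeR adjusted p up to 0.107, without Th1 DMSO), and with offsets that remove the trend with gene length Psmb5 (adjusted p = 0.163) and Psmb7 (adjusted p = 0.0563) lost theirs.

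CD8 cells against Th17 cells, which share the Th17 libraries with the comparison above, gave close values for the inducible genes. Psmb8 ran from 187.5 over 209.7 to 223.8 CPM in CD8, and Psmb9 from 130.4 over 144.9 to 150.6 CPM. Psmb10 ran from 45.4 over 48.9 to 63.3 CPM and Psme1 from 221.3 over 246.9 to 269.6 CPM. These ranges overlapped those of Th1 and lay above every Th17 library. All 5 immunoproteasome genes were higher in CD8, against 24.3% of all genes, from Psme1 (log2 0.86 ± 0.0663) and Psmb10 (0.92 ± 0.075) through Psme2 (1.09 ± 0.101) and Psmb8 (1.21 ± 0.0614) to Psmb9 (1.45 ± 0.079). Of the other 44, 14 were higher and 2 lower, against 24.3% and 22.8% of all genes. Psme2b (0.89), Psma3 (0.50), Psmg4 (0.47) and Psma2, an alpha subunit (0.40), led the rises. The subunits Psmd8 (-0.26, edgeR adjusted p = 0.0148) and Psmd4, a ubiquitin receptor (-0.17, adjusted p = 0.0242), fell, and Psmc5 (-0.20, adjusted p = 0.0586) and Psmd1 (-0.13, adjusted p = 0.217) did not pass the threshold. The count of 14 fell to 8 without Th17 WMS-200, without Th17 WMS-75, without CD8 DMSO or without CD8 WMS-64, to 9 without CD8 WMS-200 or with the length offsets, and to 3 with the WT number as a replicate block. The count of 2 became 0 without CD8 WMS-83 and 1 without Th17 DMSO, Th17 WMS-83 or CD8 WMS-75.

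CD8 and Th1 cells were close to one another. None of the 5 immunoproteasome genes passed the threshold, and their log2 differences (CD8 minus Th1) lay between -0.10 (Psme1) and 0.04 (Psme2). Of the other 44, 0 were higher and 1 lower, against 8.69% and 7.26% of all genes: Psmg1, a 20S assembly chaperone, at -0.24 ± 0.0785 (edgeR adjusted p = 0.0358). Psmg1 was no longer called when any of 8 libraries was left out, namely DMSO, WMS-200, WMS-75 or WMS-83 of either cell type (edgeR adjusted p up to 0.148, without CD8 WMS-83). Among those not called, the lowest were Psmg4 (-0.25) and the standard beta subunits Psmb4 (-0.20) and Psmb1 (-0.20), and the highest Psmd5 (0.13), Psme4 (0.11), Psmg3 (0.11) and Psmd6 (0.08). The 95% interval of the difference lay within 0.5 log2 units either side of 0 for all 49 genes.

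**Figure D2:**
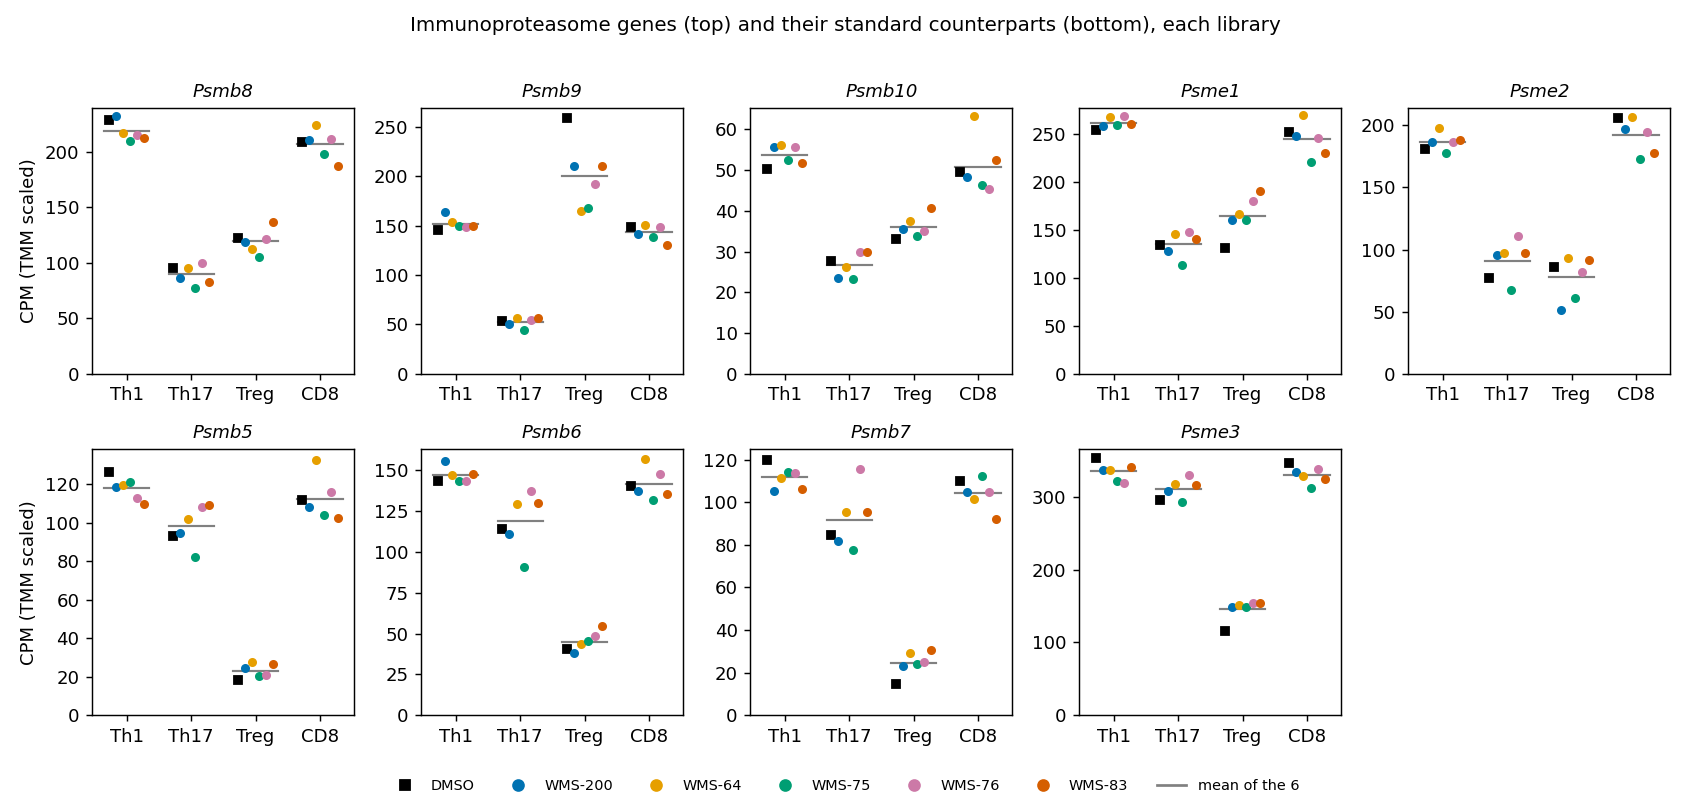
TMM-scaled CPM (y axes, each from 0 and on its own scale) of the 5 immunoproteasome genes (top row) and 4 standard counterparts (bottom row) in each library, by cell type (x axes); squares are DMSO, circles the agonists and grey lines the mean of 6. Th17 is lowest for Psmb8, Psmb9, Psmb10 and Psme1, and Treg is lowest for all 4 counterparts.

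On the TMM scale, and against the mean of the other 3 cell types, it was the standard side that differed most in Treg. In TPM, a measure per transcript length, this held for Psmb5 and Psmb7 but not for Psmb6. There Psmb9 had a mean of 280 in Treg and of 44.0 to 121 in the other cell types. Psmb6 had 122 in Treg and 193 to 229 in the others. Psmb5 ran from 18.5 over 22.7 to 27.6 CPM in Treg and lay between 81.9 and 132.4 CPM in the 18 other libraries. Psmb6 ran from 38.3 over 44.5 to 54.4 CPM in Treg, with a lowest value of 91.0 CPM elsewhere, and Psmb7 from 14.7 over 24.6 to 30.8 CPM, with a lowest value of 77.5 CPM elsewhere. The span of Psmb7 overlaps Nek6 on the other strand by 6571 bases. The Treg libraries did not overlap with any other library in these genes. Against the mean of the other 3 cell types, 43 of the 44 other members were lower and 0 higher, beside 37.9% and 42.6% of all genes tested, with a median log2 fold change of -1.29 against 0.10 over all genes.

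The size of the fall varied by role, though differences between roles were not tested. The standard beta ring had a median of -1.85 (7 of 7 lower), led by Psmb5 (-2.24 ± 0.0738), Psmb7 (-2.07 ± 0.104) and Psmb3 (-2.02 ± 0.0686), with Psmb6 at -1.58 ± 0.0667. The alpha ring had a median of -1.49 (7 of 7), its lowest member being Psma6 (-1.89 ± 0.079), and the 20S assembly chaperones -1.34 (4 of 4). The 19S non-ATPase subunits had a median of -1.18 (11 of 11), the 19S assembly chaperones -1.12 (3 of 3) and the ATPases -1.03 (6 of 6), of which Psmc5 was lowest (-1.60). With the length offsets the order of the chaperones turned. There the 20S assembly chaperones ran from -0.81 (Psmg3) to -1.15 (Psmg1). The 19S assembly chaperones ran from -1.23 (Psmd10) to -1.31 (Psmd5). Psmb4, a beta subunit, followed the named genes at the low end (-1.85). At the other end, Psme4 did not pass the threshold (-0.02 ± 0.0474, edgeR adjusted p = 0.653). Psme2b (-0.31), Psmd11, a lid subunit (-0.54), and Psme3ip1 (-0.84) had the smallest falls. Psme3, of the separate cap set against Psme1 and Psme2, ran from 115.9 over 150.5 to 154.2 CPM in Treg. Its lowest value elsewhere was 292.6 CPM, and it fell by 1.16 on the log2 scale. In 42 of the 49 members tested every Treg library lay below every other library, as in 21.9% of all genes.

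**Figure D3:**
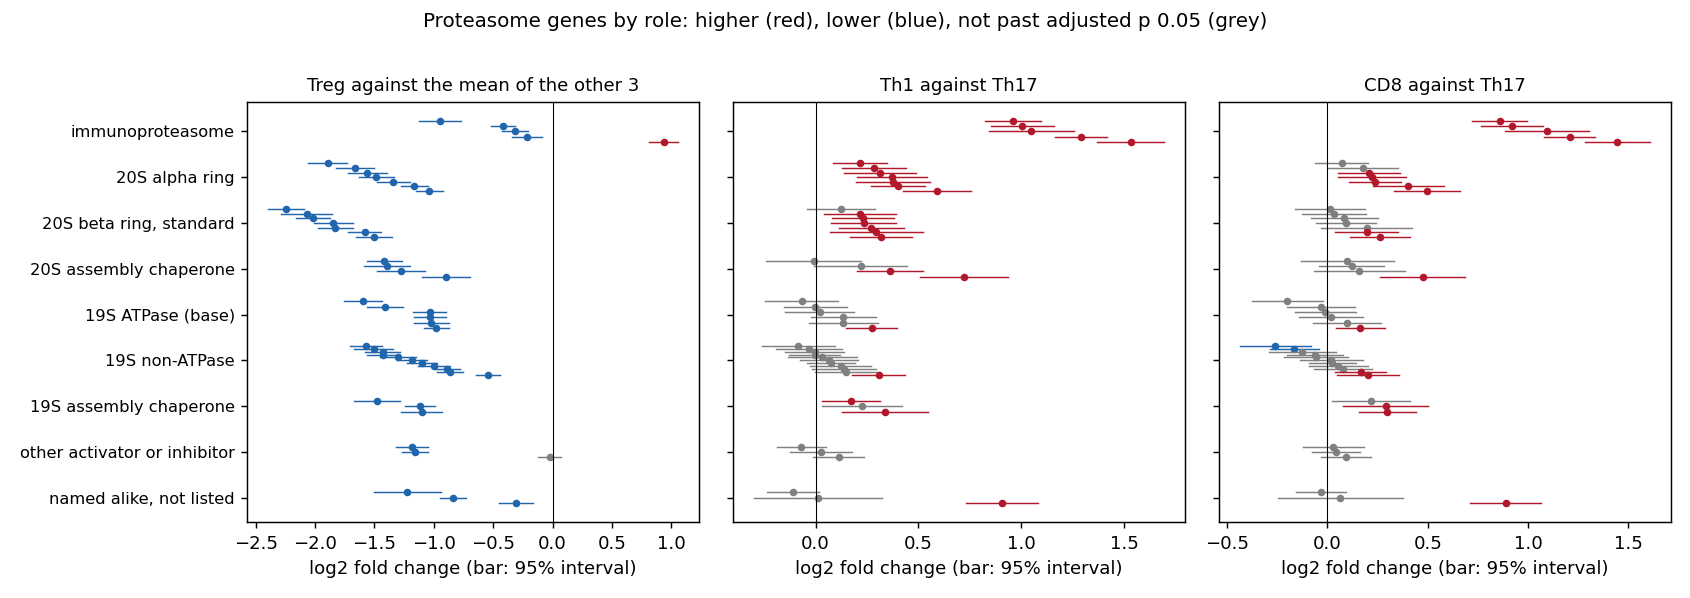
Log2 fold change (x axis; point and 95% interval) of each tested member, grouped by role (y axis), in 3 comparisons; red is higher, blue lower and grey not past an edgeR adjusted p of 0.05. No other member reaches the lowest immunoproteasome gene in Th1 or CD8 against Th17, except the near-copy Psme2b in CD8. The standard beta ring has the lowest median in Treg.

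The 5 inducible genes did not move as one in Treg. Psmb9 ran from 165.1 over 200.8 to 258.3 CPM in Treg, above every other library (highest 163.5 CPM, in Th1 WMS-200), and was higher than the mean of the other 3 by a log2 fold change of 0.93 ± 0.0596 (edgeR adjusted p = 9.84e-14). It was 1 of 5 called higher, beside 42.6% of all genes, and the other 4 were lower, beside 37.9%: Psme2 (-0.95 ± 0.0867), Psmb8 (-0.42 ± 0.0506), Psme1 (-0.32 ± 0.0547) and Psmb10 (-0.22 ± 0.061). With the length offsets the call of Psmb10 was lost (-0.016, edgeR adjusted p = 0.819). Psmb8 ran from 104.9 over 119.8 to 136.4 CPM in Treg, below Th1 and CD8 and above every Th17 library. Psmb10 ran from 33.1 over 35.4 to 40.6 CPM, likewise between Th17 (23.3 to 30.02 CPM) and Th1 (50.2 to 56.3 CPM). Psme1 ran from 131.4 over 163.7 to 190.3 CPM, overlapping Th17 (113.1 to 148.0 CPM). Psme2 ran from 51.2 over 84.0 to 93.4 CPM, overlapping Th17 (67.3 to 110.7 CPM) and below Th1 (177.9 to 198.1 CPM) and CD8 (172.7 to 206.4 CPM).

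These directions in Treg depended on the scaling, except for Psmb9 and Psme2, and so did the counts. Scaled by the length-normalised total, as in TPM, a measure per transcript length, the median of all genes in Treg rose from 0.10 to 0.86, 69.2% of genes were called higher and 17.5% lower, and 39 of the 44 other members were lower and 3 higher, with a median of -0.53. On that scale Psmb8 (log2 0.34), Psme1 (0.44) and Psmb10 (0.55) turned to higher, as did Psme4 (0.74), Psmd11 (0.22) and Psme2b (0.46). Relative to the median of all genes, Psmb8, Psmb10, Psme1 and Psme2 were lower and Psmb9 higher. A change of scaling shifts all genes nearly alike, so these positions are the same on both scales by construction. In TPM the 5 inducible genes summed to 1170 ± 77.8 (SD, n = 6) in Treg, 1056 ± 31.1 in Th1, 1052 ± 45.5 in CD8 and 518 ± 25.6 in Th17, and the 46 other members to 4794 ± 372, 7300 ± 80.5, 7069 ± 208 and 6665 ± 231. The sum over the inducible genes was thus lowest in Th17 and the sum over the others lowest in Treg.

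Against Th17 alone, 4 of the 5 inducible genes were higher in Treg, beside 38.3% of all genes: Psmb9 (log2 1.93 ± 0.0797), Psmb10 (0.43 ± 0.075), Psmb8 (0.42 ± 0.061) and Psme1 (0.29 ± 0.0661). Psme2 was called lower (-0.23 ± 0.101, edgeR adjusted p = 0.0426), beside 36.5% of all genes. That call was lost without any one of Th17 WMS-200, WMS-76 or WMS-83 and Treg WMS-200, WMS-75 or WMS-76 (adjusted p up to 0.138), with the DESeq2 size factors (adjusted p = 0.0634) and with the length offsets (adjusted p = 0.473), and turned to 0.50 with the TPM scaling. Of the other 44, 42 were lower and 1, Psme2b (0.29), higher. Psmb5 (-2.09), Psmb3 (-1.91), Psmb7 (-1.90) and Psmb4 (-1.77) were lowest, and Psmd3 (-0.70), Psmd11 (-0.51) and Psme4 (-0.03, not past the threshold) stood highest with Psme2b. With the WT number as a replicate block Psme1 (adjusted p = 0.0577) and Psme2b (adjusted p = 0.148) lost their calls.

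Markers of other cells were low and not uniform across cell types. Against the mean of the other 3 cell types, 42.6% of all genes were called higher in Treg and 37.9% lower on the TMM scale. With the TPM scaling these shares were 69.2% and 17.5%. B cell markers (6 of 6 tested, 4 higher in Treg) summed to 8.52 to 13.1 CPM in Treg and 3.53 to 11.6 CPM in the other libraries. Stromal markers (3 of 5 tested, all 3 higher in Treg, mostly Pecam1) summed to 47.2 to 60.4 CPM in Treg and 14.7 to 22.6 CPM elsewhere. Myeloid markers (3 of 8 tested, all 3 lower in Treg) summed to 8.41 to 12.5 CPM in Treg and 10.9 to 25.9 CPM elsewhere. NK markers (2 of 5 tested, 1 lower in Treg), of which most counts were Eomes, a gene T cells also express, summed to 11.7 to 29.8 CPM in Treg, 39.8 to 51.6 in Th1, 84.3 to 97.4 in CD8 and 2.19 to 5.31 in Th17. Klra8 had 0 counts in Treg and Col3a1 had 0 in Th17. Their part in the differences, and that of the lower share of ribosomal protein counts in Treg, was not tested. In such bulk samples fewer cells of a type and less RNA per cell cannot be told apart.

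Other genes of the pathway were read from lists. Of 23 tested partners that lack the Psm name, 21 were lower and 2 higher in Treg against the mean of the other 3, beside 37.9% and 42.6% of all genes, with a median of -0.96. They include Pomp, the chaperone that matures the 20S core (-2.05), and Sem1, a small lid subunit (-1.90). Those higher were Ecpas, a proteasome adaptor (0.51), and Ubqln4, a shuttle of ubiquitylated proteins (0.21). Against Th17, Th1 cells had 5 of the 23 higher and 3 lower, close to the 24.1% and 23.2% of all genes. In the pathway of Nfe2l1 (Nrf1), a transcription factor that induces proteasome genes when proteasome activity falls, 3 of 7 genes were lower and 2 higher in Treg, near the 37.9% and 42.6% of all genes. Those lower were Ngly1 (-1.04), which deglycosylates Nrf1, Nfe2l1 itself (-0.73) and Mafk (-0.53). Those higher were Ddi2, the protease that cleaves Nrf1 (0.45), and Mafg (0.19). The Treg values of both lists are on the TMM scale. The TPM scaling moved the median of all genes in Treg from 0.10 to 0.86. Falls of the size of those of Nfe2l1 and Mafk may therefore not keep their direction on that scale.

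Genes for the class I pathway that the immunoproteasome feeds were split in Treg. Of 10 tested, 3 were higher, Nlrc5, the class I transactivator (log2 1.27 ± 0.0715), Tapbp (0.58) and Tap1 (0.55), and 6 lower, the lowest being Calr (-1.64), B2m (-1.13) and Pdia3 (-0.9996), beside 42.6% and 37.9% of all genes. These Treg values are on the TMM scale, and the TPM scaling moved the median of all genes from 0.10 to 0.86. Tap1 stood at 485 ± 42.3 CPM (SD, n = 6) in Treg, 421 ± 15.3 in Th1, 363 ± 8.27 in CD8 and 237 ± 8.46 in Th17, the same order of means as its neighbour Psmb9, though Treg (from 440.9 CPM) and Th1 (up to 444.2 CPM) overlapped. The spans of both genes overlap by 212 bases on opposite strands in the file, and the strand setting of the counting is not given in the sources used here. In Th1 against Th17, 8 of the 10 rose and 0 fell, beside 24.1% and 23.2% of all genes, led by Tapbpl (1.18), Erap1 (1.09) and Nlrc5 (0.93), and in CD8 against Th17 8 rose, beside 24.3%.

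In the interferon gamma list, 7 of 12 genes were higher and 4 lower in Th1 against Th17, beside 24.1% and 23.2% of all genes. Ifng itself (6.88), Irf1 (2.30) and Irf8 (1.22), both interferon-induced transcription factors, rose most, and Ifngr2 (-1.84), Socs1 (-0.35) and Ifngr1 (-0.29) fell most. In Treg 8 were higher and 1 lower than in the other 3, beside 42.6% and 37.9% of all genes (69.2% and 17.5% with the TPM scaling). Ifngr1 (1.59), Irf1 (1.57) and Stat2 (1.49) rose most, while Ifng fell by 9.24 on the log2 scale. Ifng stood at 0.255 ± 0.141 CPM (SD, n = 6) in Treg, 5.00 ± 2.04 in Th17, 591 ± 72.8 in Th1 and 1368 ± 57.3 in CD8. Ifng was thus lowest in Treg, where Psmb9 was highest. On the TMM scale Psmb8, Psmb10 and Psme1 had their highest mean in Th1 and Psme2 in CD8. A link between Ifng and these genes was not tested.

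The KOR agonists were compared with DMSO over the 4 cell types. Of the 49 members, 0 were called for the 5 agonists together, beside 0% of all 15885 genes. The log2 difference was above 0 for 44 of 49, with a median of 0.07 against 0.01 over all genes, and the 95% interval lay within 0.5 log2 units either side of 0 for all 49. The smallest p-values (edgeR adjusted p = 0.992 for each) belonged to Psmc2, an ATPase (0.16, interval -0.01 to 0.32), Psmb9 (-0.13, interval -0.28 to 0.02) and Psmd12, a lid subunit (0.13, interval -0.02 to 0.28). No member reached an unadjusted p under 0.05, and 504 of all genes did.

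By compound, 0 members were called against DMSO for any of the 5, beside 0% of all genes each time. Unadjusted p was under 0.05 for 7 members with WMS-64, 4 with WMS-83, 2 with WMS-75 and 0 with WMS-200 or WMS-76. Of all 15885 genes it was so for 1021, 620, 548, 246 and 488 in that order. The 3 smallest p-values belonged to Psme2b (0.14), Psmd10 (0.14) and Psmb1 (0.09) for WMS-200, with log2 differences in parentheses, and to Psmd14 (0.24), Psmd12 (0.22) and Psmc3 (0.22) for WMS-64. They belonged to Psmb9 (-0.25), Psmb8 (-0.18) and Psme2 (-0.24) for WMS-75, to Psme1 (0.15), Psma1 (0.17) and Psmc2 (0.18) for WMS-76 and to Psmc2 (0.25), Psmd3 (0.18) and Psmc5 (0.24) for WMS-83. Psmd14 is the deubiquitinase of the lid, and Psmc2, Psmc3 and Psmc5 are ATPases. With WMS-75, Psmb9 (interval -0.44 to -0.05) and Psmb8 (-0.18, interval -0.33 to -0.02) had intervals below 0 before adjustment (edgeR adjusted p = 0.9999 for both). After WMS-75 all 5 immunoproteasome genes were below DMSO, and after WMS-64 46 of the 49 members were above it. The share of all genes on each side is not given here, and members moved together within single libraries. These counts are therefore not read as an effect of a compound. These 5 comparisons share the 4 DMSO libraries.

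The 5 agonists were then compared with one another at the matched dose. The labels add a suffix to each code that, for all but WMS-76, changes between cell types, while the treatment protocol names 1 compound per code. Each code was therefore taken as 1 compound. The F-test across them called 0 members, beside 0% of all genes, and its smallest p was that of Psme2 (0.0295, edgeR adjusted p = 0.994), followed by Psmb6 and Psmd14. Over the 10 pairs, with p adjusted over all genes and pairs together, 0 members were called, again beside 0%. The largest difference of a pair was in Psme2, WMS-64 minus WMS-75, at 0.38 (95% interval 0.13 to 0.63, edgeR adjusted p = 0.9997). Psme2 also differed most between WMS-75 and WMS-76 (-0.34, interval -0.59 to -0.08) and between WMS-75 and WMS-83 (-0.31, interval -0.56 to -0.05). In each pair 47 to 49 of the 49 intervals lay within 0.5 log2 units either side of 0, and all 49 within 1.

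**Figure D4:**
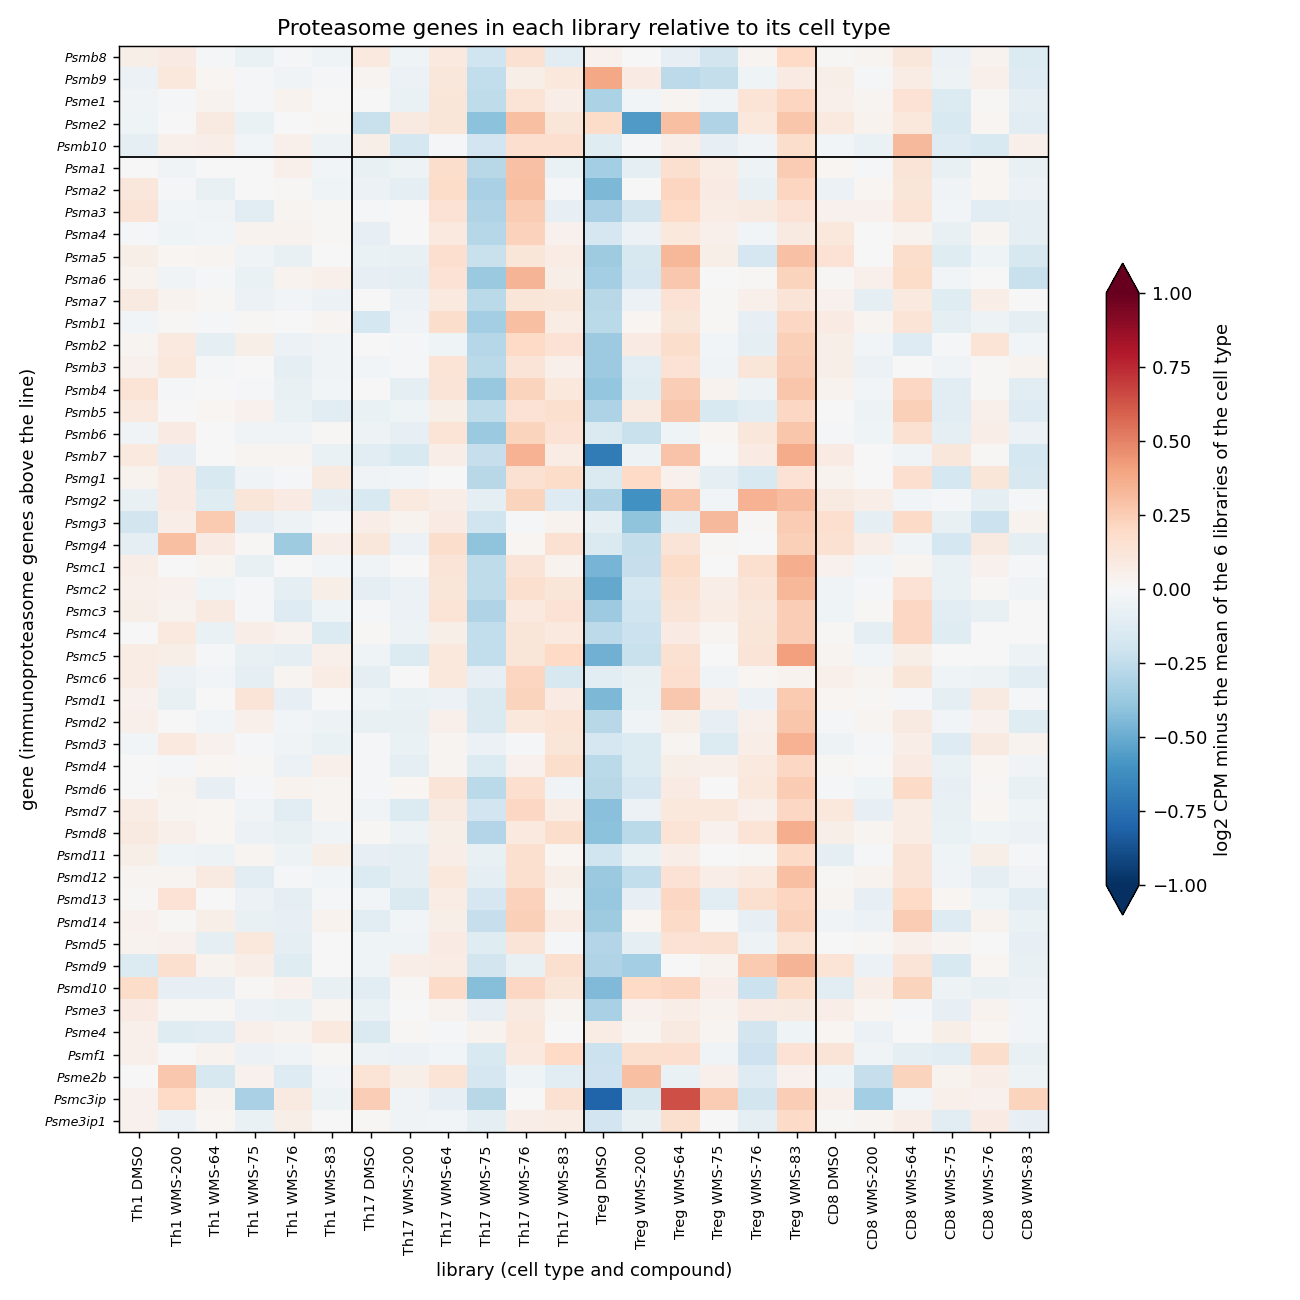
Log2 CPM of the 49 tested members (rows, immunoproteasome genes above the line) in each library (columns), minus the mean of the 6 libraries of its cell type; red is above and blue below that mean, and black lines part the cell types. The Th17 WMS-75 and Treg DMSO columns are mostly blue and the Treg WMS-83 and CD8 WMS-64 columns mostly red.

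Single libraries moved most members together, as the map of libraries shows. On the TMM scale, Th17 WMS-75 was the lowest of the 6 Th17 libraries for 43 of 49 members, beside 24.6% of all genes. Treg DMSO was the lowest Treg library for 39, beside 29.4%, and Treg WMS-83 the highest for 29, beside 22.9%. CD8 WMS-64 was the highest CD8 library for 33, beside 21.3%. These ranks depend on the scaling of libraries. In TPM, Th17 WMS-75 was the highest Th17 library for Psme3 (340.9) and Psme4 (58.8). It was still the lowest there for Psmb4 (297.3) and Psma6 (328.5). Its share of ribosomal protein counts (8.60%) was the lowest of the Th17 libraries. With 1 library per cell type and compound, the compound and the library cannot be told apart in any of these libraries.

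Within cell types, 0 members were called against DMSO in Th1 (0% of all genes), in Th17 (0.0378%) and in CD8 (0.0063%). The smallest p-values were those of Psmd10 (-0.22), Psma3 (-0.16) and Psme3 (-0.09) in Th1, of Psme4 (0.17), Psmb1 (0.23) and Psmd12 (0.17) in Th17 and of Psmf1 (-0.15), Psma5 (-0.17) and Psmd11 (0.12) in CD8, as log2 differences. In Treg 12 of the 44 other members were higher, beside 7.64% of all genes, and 1 of the 5 immunoproteasome genes was lower, beside 1.18% (8.82% in either direction). Psmb7 had 14.7 CPM in Treg DMSO and 23.0, 29.1, 23.9, 25.3 and 30.8 CPM after WMS-200, then WMS-64, then WMS-75, then WMS-76 and last WMS-83. DMSO was the lowest, and the log2 difference was 0.84 ± 0.178 (edgeR adjusted p = 0.00486). Psmc2 had 42.7 CPM in Treg DMSO and 54.0 to 77.0 CPM after the agonists (0.63 ± 0.146, edgeR adjusted p = 0.00915), and Psme3 had 115.9 CPM against 148.5 to 154.2 (0.38 ± 0.0929, edgeR adjusted p = 0.0109). Psmb9 was lower, with 258.3 CPM in DMSO and 209.8, 165.1, 167.8, 192.0 and 209.7 CPM after the agonists in the same order (-0.45 ± 0.122, edgeR adjusted p = 0.0199).

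The result in Treg rested on 1 DMSO library, which also had the lowest total count of the series (15188284), the lowest share of ribosomal protein counts (1.60%) and a WT number shared within Treg only by WMS-200. With the WT number as a replicate block, which leaves WMS-200 against DMSO in Treg, 0 members were called. In that pair 38 of the 44 other members were above DMSO, with a median of 0.22 log2 units, while the mean of the other 4 agonists was above DMSO for 43, with a median of 0.44. Of all 15885 genes, 8569 and 8803 were above DMSO in the same 2 comparisons, with medians of 0.03 and 0.06. The count of 12 became 25 without Treg WMS-200 and 7 without Treg WMS-64 or Treg WMS-83. The test of whether the agonist effect differed between cell types called 0 of 49 members, beside 0.176% of all genes, its smallest p being that of Psmb7 (edgeR adjusted p = 0.0913), then Psme3 (0.126) and Psmd7 (0.150).

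The agonist effect on the 5 ratios was tested by moving the DMSO label within each cell type (exact two-sided permutation). None passed after adjustment over the 5. The mean log2 difference between agonists and DMSO was -0.19 for Psmb9/Psmb6 (exact p = 0.0262, adjusted p = 0.131), -0.15 for Psmb8/Psmb5 (exact p = 0.0625, adjusted p = 0.156) and -0.13 for Psmb10/Psmb7 (exact p = 0.248, adjusted p = 0.414). It was 0.02 for Psme1/Psme3 and -0.08 for Psme2/Psme3 (exact p = 0.660 and 0.589, adjusted p = 0.660 for both). For Psmb9/Psmb6 the difference was -0.63 in Treg and -0.09, -0.08 and 0.03 in Th17, CD8 and Th1. Treg thus had the largest difference of the 4 cell types, and it rests on its single DMSO library.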

How the data were processed

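The authors deposited raw read counts per gene. The submitters' processing notes name HISAT2, featureCounts and fastp. Versions, strand setting, genome build and annotation: not given in the sources used here. All 24 libraries were used, and 0 value columns were left without a sample. One library titled Th17 was placed in Th1, as its source name, characteristics and column say. Total counts are in the report and allow a precision set by the spread between libraries rather than by counting.

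Genes passed filterByExpr by cell type (minimum count of 10), which left 15885 of 56748. Quasi-likelihood fits (edgeR 4.0.16, R 4.3.3) were made to all libraries with TMM scaling, with terms for cell type and compound (15 residual degrees of freedom) or for agonist or DMSO within each cell type (16). Within a cell type the single DMSO library is taken to be as variable as the rest. Benjamini-Hochberg adjustment covered all 15885 genes, and the threshold was 0.05. Levels between genes used counts per length (TPM), from the lengths in the file. Ratios were tested by exact permutation. Fits were tested on simulated data. Alternatives used DESeq2 1.42.0, limma-voom (limma 3.58.1), other scalings, filters, length offsets, a block and each library left out.

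Named genes were the 5 immunoproteasome genes, Psmb5, Psmb6, Psmb7 and Psme3, the 4 highest and 4 lowest other members of each cell type contrast, members below the filter, the 3 members of smallest p in agonist contrasts, and the 3 largest changes each way of the class I and interferon gamma lists. Other names were added where a count or group needed an example. The members and lists were chosen with earlier results of these data known. Of the 51 members, 25 overlap another gene's span in the file, 11 of them a protein coding gene on the other strand, among them Psmb9 (Tap1) and Psmb7 (Nek6). Without a stated strand setting such reads cannot be told apart. Promoter sequences came from RefSeq (GRCm38.p6).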

Additional observations from a re-analysis of the deposited data

Results flagged for a closer look

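Of 64 groups of 6 libraries checked for a single library far from the others, 5 had one by Dixon's criterion, and chance alone flags about 1 in 20 groups. In Treg, the DMSO library had 115.9 CPM of Psme3, with 148.5 to 154.2 CPM in the other 5, and a log2 Psmb10/Psmb7 ratio of 2.17, with 1.37 to 1.64 in the others. In CD8, the WMS-64 library had a log2 Psme1/Psme3 ratio of 0.134, with -0.0823 to -0.012 in the others, and the other 46 members took 0.588% of its counts, with 0.539% to 0.555% in the others. In Th1, the WMS-200 library had 155.5 CPM of Psmb6, with 143.3 to 147.8 CPM in the others.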

How the results depend on the processing

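Scalings by total counts and by the length-normalised total (as in TPM) were chosen after seeing the data. For Treg against the mean of the other 3, they gave 2 and 4 immunoproteasome genes higher, 1 and 1 lower, and 1 and 3 other members higher, against 1, 4 and 0. Log2 fold changes turned positive for Psme1 (0.031 and 0.44), Psmb10 (0.13 and 0.55), Psme2b (0.041 and 0.46) and Psme4 (0.33 and 0.74) under total counts and TPM, for Psmb8 (0.34) and Psmd11 (0.22) under TPM, and for Psme2b (0.093) under length offsets. For Treg against Th17, Psme2 (0.12 and 0.50) and Psme4 (0.31 and 0.70) turned under both, and Psmd3 (0.020) and Psmd11 (0.22) under TPM. There the count of immunoproteasome genes lower (1) became 0 under both, under DESeq2, its size factors, a minimum count of 50, length offsets and the replicate block, and was 0 to 1 with a library left out. Other members higher (1) became 0 under the block, 2 under total counts and 3 under TPM.

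TPM scaling gave 1 other member lower in Th1 against Th17 (0), and 1 higher (0) and 0 lower (1) in CD8 against Th1. That count of lower members was 0 with no filter or length offsets, 2 with DESeq2, 4 with a minimum of 50, and 0 to 3 with a library left out. For CD8 against Th17, other members higher (14) became 9 with length offsets and 3 with the replicate block, and 8 to 16 with a library left out, which gave 0 to 3 lower (2). For Th1 against Th17, leaving out a library gave 15 to 22 (20).

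For agonists in Treg, other members higher (12) became 7 with DESeq2 size factors or TPM scaling, 20 with no filter, 0 with the replicate block, and 7 to 25 with a library left out. Immunoproteasome genes lower (1) became 0 with the block. Those higher (0) became 1 with no filter, and 0 to 1 with a library left out. The interaction (0 other members) gave 5 with no filter, 2 with DESeq2, and 0 to 6 with a library left out, and the difference among agonists gave 1 immunoproteasome gene with no filter. The replicate block by WT number could not be fitted for cell type contrasts with Th1, for Treg against the mean, in Th17 or for the interaction, and the labels do not say that equal numbers pair libraries. The causes of these changes were not tested. Over all counts and ratio results, 1453 values stayed within 1.5 times or on their side of the threshold and 66 did not.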
